A study of Mus musculus with 21 samples.

Results

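Lysosomal genes were followed in the lungs of bleomycin-treated mice of 3 inbred strains. The set holds 35 genes listed by symbol: 5 lysosomal membrane and lipid transfer proteins, 10 glycosidases, 3 sulfatases, 6 lipid hydrolases and activators, 2 peptidases and 9 proton pump subunits, with the cathepsins left out. On the array 33 of the 35 had a probe set with exactly 1 gene symbol, 62 probe sets of 22690 in all, and 58 of these probe sets were bright enough to be tested, once the dimmest 33.3% of all probe sets were left out. Arsb, which encodes arylsulfatase B, and Atp6v0c, which encodes the ring-forming c subunit of the proton pump, had none and are not analysed here. Each of the other 33 genes was tested, among 9079 genes in all.

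The strains were A/J, C57BL/6 and C3H/HeJ, and 21 Affymetrix arrays measured whole right lung RNA, each from a pool of 3 to 5 mice. Bleomycin, given to the treated mice, is a cancer drug that cuts DNA and scars lung tissue. The A/J groups were 3 weeks (4 arrays), 6 weeks (2) and control (2). The C57BL/6 groups were 3 weeks (2 arrays), 6 weeks (1, female), mice labelled sick with no time given (2) and control (2). The C3H/HeJ groups were 3 weeks, 6 weeks and control, with 2 arrays each. Males had mostly received a dose of 100 and females 125, so sex and dose cannot be told apart in most groups. At 3 weeks A/J also had males at 80 and females at 100, a pool each. The labels give no unit, which was read as mg/kg, and do not say what control mice received. Nothing in the labels ties pools of the same number across groups, and p-values measure the spread between pools.

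The lysosome is the organelle in which acid hydrolases break down proteins, sugar chains, sulfated matrix polymers and lipids taken up or enclosed by the cell. The vacuolar ATPase, a rotary pump with a soluble V1 part that hydrolyses ATP and a membrane V0 part that moves protons, keeps it acidic. Heavily glycosylated membrane proteins such as LAMP1 and LAMP2 line its membrane. In lung, lysosomes are prominent in macrophages, which digest surfactant and cell debris, and alveolar type 2 cells store surfactant in lysosome-related lamellar bodies. Many lysosomal promoters carry a palindromic element around CACGTG that the factor TFEB binds.

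Signals are given on the linear scale after quantile normalization between arrays, in the array's arbitrary units. Changes are differences of log2(signal + 16), which understates the change of dim genes. Of 2 values for a group the male pool's comes first, and the 4 A/J values at 3 weeks are the male pools at 80 and 100 and then the female pools at 100 and 125. A gene was called higher or lower at an adjusted p under 0.05 in the limma fit. Before normalization the array medians ran from 58.6 to 111.3. The arrays were lung as labelled: the surfactant gene Sftpc had a signal of 6041 to 7395 and the club cell gene Scgb1a1 of 6372 to 7761. The Y-linked signal matched the sex label on 21 of 21 arrays. The 3′ to 5′ Gapdh ratio, which rises with RNA degradation, was 0.77 to 1.34 on 20 arrays and 2.08 on the C3H/HeJ female array at 6 weeks. In whole lung, fewer cells of a type and less RNA per cell cannot be told apart.

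At 3 weeks, in the mean of the 3 strains' changes from control, 16 of the 33 lysosomal genes were higher and 0 lower. Over all 9079 genes 7.93% were higher and 9.0% lower. The median change of the 33 was 0.25 on the log2 scale, against -0.01 for all genes. The hydrolases carried most of the calls. Of the glycosidases 7 of 10 rose (median 0.38), of the peptidases 2 of 2 (0.62), of the lipid hydrolases and activators 3 of 6 (0.25), of the sulfatases 1 of 2 (0.28) and of the proton pump subunits 3 of 8 (0.18). None of the 5 membrane and lipid transfer genes passed (median -0.05). These counts depended on how arrays were scaled. With the values as deposited, where the median of all genes shifted to -0.27, 3 of the genes were called higher (Lgmn, Man2b1 and Gla) and Lamp2 lower. The split over all genes was then 187 higher and 1864 lower, against 720 and 817 after quantile normalization. Relative to the median of all genes the members' median was 0.21 as deposited and 0.26 after quantile normalization. The count was 10 without the C3H/HeJ male control array.

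**Figure D1:**
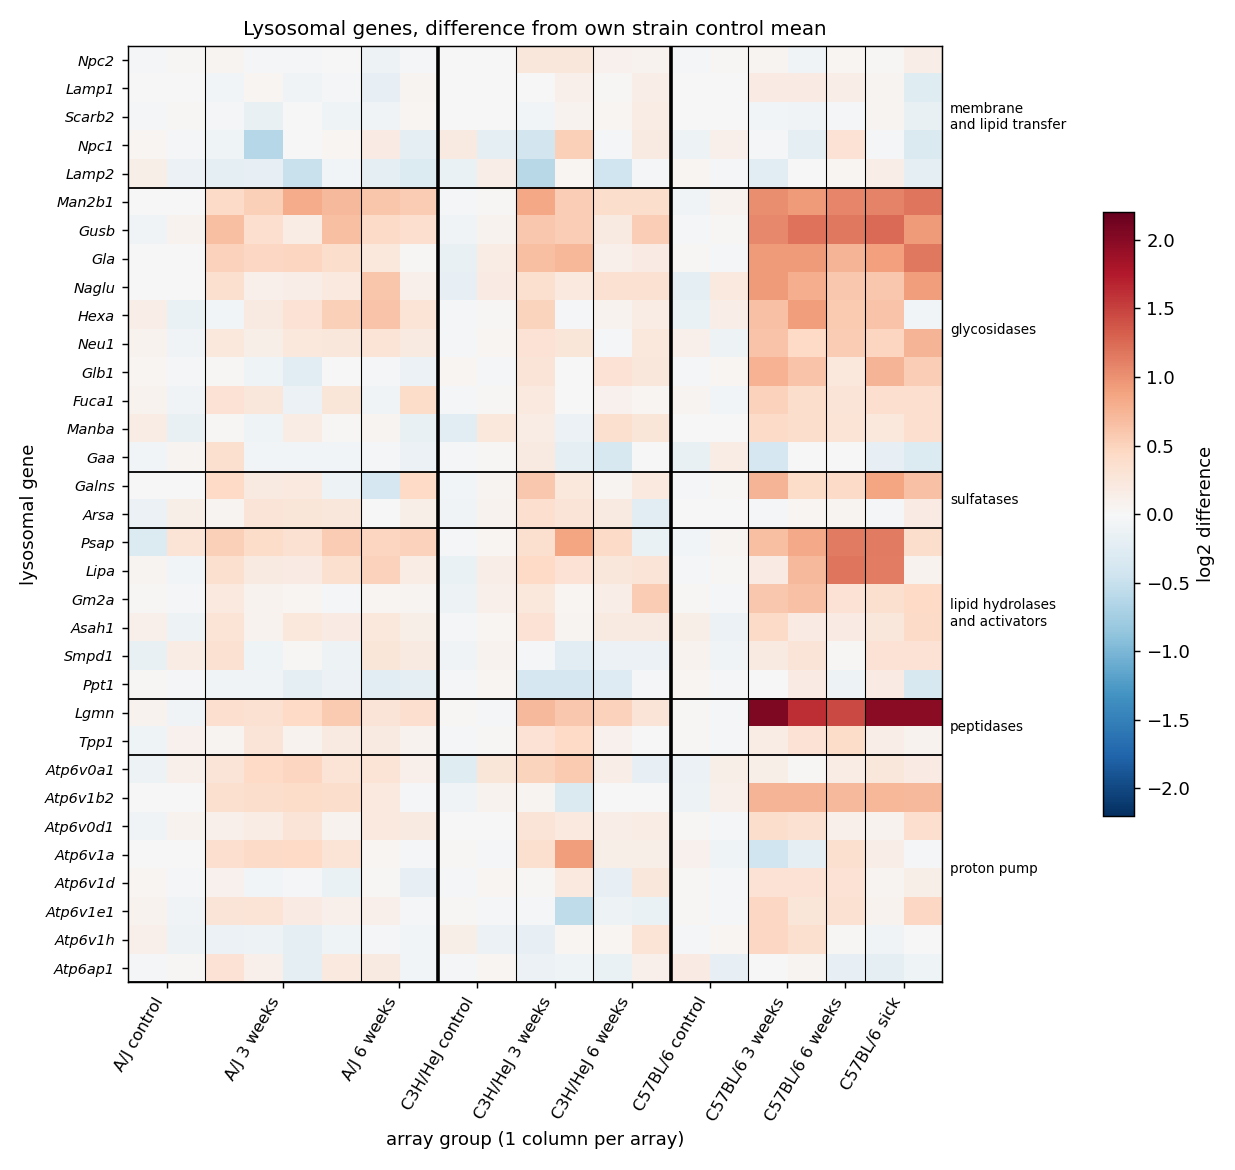
Heat map of the 33 lysosomal genes (rows, by role) over the 21 arrays (columns, by strain and stage), coloured by the log2 difference from the mean of the same strain's control arrays. The deepest red is Lgmn in C57BL/6 arrays at 3 weeks and in sick mice, Man2b1 is 0.38 to 1.17 above control over the 15 treated arrays, Gla 0.39 to 0.95 at 3 weeks and down to 0.03 at 6 weeks, and among the membrane genes Npc2 spans -0.11 to 0.25 and Npc1 -0.62 to 0.54.

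The peptidase genes were led by Lgmn, which encodes legumain, the lysosomal endopeptidase that cuts after asparagine. In C57BL/6 lungs Lgmn had signals of 2136 and 1584 at 3 weeks, against 511 and 496 in controls. A/J Lgmn signals were 875, 854, 914 and 1017 at 3 weeks, against 707 and 640.4 in controls. C3H/HeJ Lgmn signals were 1300.3 and 1199 at 3 weeks, against 797 and 774 in controls. Every treated array lay above both controls of its strain, and the gap was widest in C57BL/6, whose controls were the lowest of all. The mean change of Lgmn was 0.98 (SE 0.07, adjusted p = 1.44e-07), the smallest p of the set and a 1.97-fold rise. Tpp1, which encodes tripeptidyl peptidase 1, rose by less. Its signals were 1617 and 1774 at 3 weeks, against 1465 and 1398 in controls, in C57BL/6. A/J Tpp1 signals were 1431, 1687, 1447 and 1575 at 3 weeks, against 1285 and 1463 in controls. C3H/HeJ Tpp1 signals were 1758 and 1902 at 3 weeks, against 1376 and 1427 in controls. The Tpp1 arrays overlapped with controls in A/J and not in C57BL/6 or C3H/HeJ, and the mean change was 0.26 (SE 0.06, adjusted p = 0.00783). With the deposited scaling Tpp1 was -0.04.

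Among glycosidases, which trim sugar chains from glycoproteins, glycolipids and matrix polymers, the smallest p belonged to Man2b1, the lysosomal alpha-mannosidase. In C57BL/6 lungs Man2b1 had 1203 and 1122 at 3 weeks, against 551 and 609 in controls. A/J Man2b1 signals were 794, 856, 1061 and 970.3, against 594 and 587 in controls. C3H/HeJ Man2b1 signals were 1142 and 918, against 614 and 640.2 in controls. Control levels were close to each other in the 3 strains, no treated array overlapped with a control, and the mean change was 0.76 (SE 0.08, adjusted p = 2.44e-06). A second Man2b1 probe set, with a median signal of 79.4, gave 0.07 (SE 0.24) in the same comparison. Gusb encodes beta-glucuronidase, which removes glucuronic acid from glycosaminoglycans. In C57BL/6 lungs Gusb had 412 and 455 at 3 weeks, against 187 and 194 in controls. A/J Gusb signals were 343, 279.6, 238 and 345, against 201 and 225 in controls. C3H/HeJ Gusb signals were 455 and 435, against 277 and 313 in controls. The A/J female pool at 100 was just above the higher A/J control and the other treated arrays were clearly higher than theirs. The mean change of Gusb was 0.72 (SE 0.10, adjusted p = 7.41e-05), and its second probe set also rose (0.57, SE 0.17).

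Gla encodes alpha-galactosidase A, which removes terminal galactose from glycolipids. In C57BL/6 lungs Gla had 95.2 and 95.7 at 3 weeks, against 43.2 and 40.8 in controls. A/J Gla signals were 74.5, 70.9, 72.2 and 66.6, against 46.5 and 47.8 in controls. C3H/HeJ Gla signals were 87.8 and 93.3, against 42.6 and 57.7 in controls. Treated and control arrays did not overlap in any strain, and the mean change was 0.70 (SE 0.10, adjusted p = 0.000103). Naglu encodes alpha-N-acetylglucosaminidase, an enzyme of heparan sulfate breakdown. In C57BL/6 lungs Naglu had 203 and 182 at 3 weeks, against 81.8 and 116 in controls. A/J Naglu signals were 176, 145, 149 and 158, against 136 and 132 in controls. C3H/HeJ Naglu signals were 164 and 146, against 108 and 143 in controls. The groups lay apart in each strain, narrowly in A/J and C3H/HeJ, with a mean change of 0.46 (SE 0.11, adjusted p = 0.00806). Neu1, the lysosomal sialidase, had 212 and 185 at 3 weeks, against 145 and 121 in controls, in C57BL/6. A/J Neu1 signals were 189, 175, 189.7 and 194, against 170.1 and 149 in controls. C3H/HeJ Neu1 signals were 189 and 182, against 145 and 152 in controls. Treated arrays were above controls in each strain by a small margin, and the mean change was 0.34 (SE 0.09, adjusted p = 0.0109). Hexa, the alpha subunit of beta-hexosaminidase, rose by 0.42 (SE 0.12, adjusted p = 0.0268) and Glb1, lysosomal beta-galactosidase, by 0.25 (SE 0.08, adjusted p = 0.0382). The other 3 glycosidases did not pass: Fuca1, a fucosidase, at 0.25 (adjusted p = 0.0676), Manba, beta-mannosidase, at 0.15, and Gaa, the acid glucosidase that degrades glycogen, at -0.06. A second probe set of Fuca1 did pass (0.49, SE 0.10, adjusted p = 0.0029 in the fit of every probe set).

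Of the lipid hydrolases and activators, Psap showed the largest change. It encodes prosaposin, the precursor of the saposins, which present sphingolipids to their hydrolases. In C57BL/6 lungs Psap had 2938 and 3306 at 3 weeks, against 1783 and 1940.1 in controls. A/J Psap signals were 2288, 2091, 2002 and 2333, against 1276 and 1946 in controls. C3H/HeJ Psap signals were 2796 and 3987, against 2126 and 2246 in controls. No treated array overlapped with the controls of its strain, although the A/J controls differed widely from each other. The mean change of Psap was 0.60 (SE 0.13, adjusted p = 0.00386), and its second probe set rose too (0.75, SE 0.19). Gm2a, the activator that lifts the ganglioside GM2 out of the membrane, rose by 0.28 (SE 0.08, adjusted p = 0.019) and Asah1, acid ceramidase, by 0.23 (SE 0.07, adjusted p = 0.0311). A second Gm2a probe set was at -0.25 (SE 0.22), and with the deposited scaling Gm2a and Asah1 were -0.03 and -0.07. Lipa, the acid lipase for cholesteryl esters, was at 0.37, adjusted p = 0.0641. Smpd1, acid sphingomyelinase, was at 0.05 and Ppt1, the thioesterase that removes palmitate from proteins, at -0.13. Of the sulfatases, Galns, which desulfates keratan sulfate, rose by 0.39 (SE 0.13, adjusted p = 0.0433), while Arsa, arylsulfatase A, was at 0.18, adjusted p = 0.178. Several calls in the mean were easily lost: of 33 other settings, Galns lost the call under 16, Glb1 under 14, Asah1 under 8, and Hexa and Gm2a under 7 each.

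The proton pump genes did not move as a block. The V1 subunit gene Atp6v1b2, whose product forms part of the ATP-binding ring, had 783 and 784 at 3 weeks, against 425 and 499 in controls, in C57BL/6. A/J Atp6v1b2 signals were 917, 938, 943 and 939, against 719.9 and 709.8 in controls. C3H/HeJ Atp6v1b2 signals were 883 and 672, against 806 and 885 in controls. The treated arrays were above controls in C57BL/6 and A/J and overlapped with them in C3H/HeJ, and the mean change was 0.33 (SE 0.07, adjusted p = 0.00528). Atp6v0d1, whose product links V0 to the central stalk, had 901 and 863 at 3 weeks, against 695 and 670.1 in controls, in C57BL/6. A/J Atp6v0d1 signals were 769, 799, 870.5 and 750.2, against 677 and 750.4 in controls. C3H/HeJ Atp6v0d1 signals were 870.5 and 831, against 712 and 711 in controls. One A/J array at 3 weeks reached down to the higher A/J control, and the mean change was 0.26 (SE 0.07, adjusted p = 0.0127). With the deposited scaling Atp6v0d1 was -0.05. Atp6v0a1, a subunit of the proton channel part, rose by 0.33 (SE 0.09, adjusted p = 0.0223). Its call was lost under 7 of 33 other settings, among them the deposited scaling (0.03) and the mean of its probe sets (0.23). The other Atp6v0a1 probe sets, all dimmer, were at 0.14, 0.12 and 0.31, and none was called. The remaining subunits did not pass: Atp6v1a, the catalytic A subunit, at 0.23, adjusted p = 0.0795, Atp6v1d at 0.13, Atp6v1e1 at 0.09, the regulatory Atp6v1h at 0.07 and the accessory protein gene Atp6ap1 at 0.01.

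No membrane or lipid transfer gene passed in the mean of the strains. Npc2, the soluble carrier that passes cholesterol to NPC1, had signals of 5507 to 6738 over the 21 arrays and changed by 0.08 (SE 0.04). Lamp1 had 2356 to 3462 and changed by 0.07. Lamp2, whose product also serves chaperone-mediated autophagy, was at -0.21, adjusted p = 0.204. Scarb2, the membrane protein that carries glucocerebrosidase to the lysosome, was at -0.05, and Npc1, the cholesterol exporter, at -0.07. Second probe sets of Scarb2 (0.45, SE 0.11) and Npc2 (0.20, SE 0.06) did rise in the fit of every probe set. A second Lamp2 probe set, with a median signal of 1055.5, was at -0.44 (SE 0.15, adjusted p = 0.0537) in the mean and -0.83 (adjusted p = 0.138) in C3H/HeJ, and its other 2 were at -0.01 and 0.05. Over the 18 genes with more than 1 probe set past the filter, 20 of 25 second probe sets had the sign of the one used, 6 were called higher and 0 lower.

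Promoters of 30 of the 35 genes were in the RefSeq sequences (build GRCm38.p6, from 250 bases before to 50 after each start; 34 promoters). The element GTCACGTG, searched on both strands, was in a promoter of 7 of the 30 genes (23.3%): Arsa, Atp6v0d1, Gla, Glb1, Lamp1, Lgmn and Naglu. It was in 689 of 27025 genes overall (2.55%) and in 738 of 32851 promoters (2.25%). The shorter CACGTG, which lies inside it, was in 9 of the 30 genes (30.0%), adding Atp6v1a and Gaa, against 2187 of 27025 genes overall (8.09%). GTCACGTG was found in 5 of the 13 genes called higher that had a promoter and in 2 of the 15 tested genes not called that had one. The stretches shown carry it in 4 genes that rose and in Lamp1, which did not pass, each 100 bases long, 5′ to 3′ on the gene's strand and ending at or before the start, with the element in capitals. In Lamp1 it lies on the other strand and reads CACGTGAC. Lgmn lies at chr12:102439093-102439192 on the minus strand, Gla at chrX:134601142-134601241 (minus), Glb1 at chr9:114400978-114401077 (plus), Naglu at chr11:101069979-101070078 (plus) and Lamp1 at chr8:13159061-13159160 (plus). For Lgmn it is the upstream region of 1 of the annotated starts.
Lgmn: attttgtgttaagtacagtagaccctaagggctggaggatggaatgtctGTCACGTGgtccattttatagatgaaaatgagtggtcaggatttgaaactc
Gla: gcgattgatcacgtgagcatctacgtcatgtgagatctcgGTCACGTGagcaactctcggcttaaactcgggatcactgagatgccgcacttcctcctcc
Glb1: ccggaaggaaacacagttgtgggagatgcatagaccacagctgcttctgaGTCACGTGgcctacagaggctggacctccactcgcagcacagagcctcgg
Naglu: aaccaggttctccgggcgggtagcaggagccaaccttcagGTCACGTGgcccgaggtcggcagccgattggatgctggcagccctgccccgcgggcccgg
Lamp1: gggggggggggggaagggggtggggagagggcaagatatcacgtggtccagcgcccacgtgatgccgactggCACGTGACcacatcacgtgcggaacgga
The element starts 51 bases before the start in Lgmn, 196 in Gla, 50 in Glb1, 75 in Naglu and 28 in Lamp1.

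Of the strains at 3 weeks, C57BL/6 lungs had the most calls and the largest median change. There 11 of the 33 genes were higher than in C57BL/6 controls and 0 lower, against 7.08% higher and 5.97% lower of all genes, and the median change was 0.36 (0.01 for all genes). On 23 of the 33 genes both treated arrays lay above both controls, against 31.1% of all genes. Lgmn rose by 1.84 (SE 0.13, adjusted p = 2.65e-07), a 3.57-fold rise. The next by p were Man2b1 at 0.98 (SE 0.14), Gusb at 1.12 (SE 0.18), Atp6v1b2 at 0.75 (SE 0.13), Gla at 0.94 (SE 0.18) and Glb1 at 0.70 (SE 0.14). Glb1, the galactosidase whose activity is used as a mark of senescent cells, had 219.5 and 199.9 at 3 weeks, against 118 and 127 in controls. Both treated arrays were well above both controls. Naglu (0.87), Hexa (0.79), Psap (0.74), Gm2a (0.62) and Neu1 (0.53) also rose. The count depended on single arrays: it was 6 without the male 3 week array, 6 without the male control array, and 1, Lgmn, with the deposited scaling. Glb1 at 0.59 and Naglu at 0.65 lost the call without the male control. With the mean of all probe sets of a gene Man2b1 was 0.19 and Gm2a 0.22, and neither passed. Psap lost the call under 17 of 33 other settings, at 0.66 to 0.91 over the 33, and Neu1 under 8, among them each of the 4 C57BL/6 arrays left out in turn (0.40 to 0.65). Hexa lost it without either 3 week array (0.96 and 0.62) or the male control (0.60).

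Members below the threshold in C57BL/6 were mostly above 0. Among them were Galns (0.58, adjusted p = 0.114), Fuca1 (0.45, adjusted p = 0.0805), Lipa (0.45, adjusted p = 0.25), Manba (0.40), Asah1 (0.30), Smpd1 (0.24) and Tpp1 (0.24). Of the pump subunits Atp6v1h (0.41, adjusted p = 0.0752), Atp6v0d1 (0.36, adjusted p = 0.0551), Atp6v1e1 (0.36) and Atp6v1d (0.31) were between 0.31 and 0.41. Atp6v0a1 (0.08), Atp6ap1 (0.03) and Arsa (-0.00) were near 0. Below 0 were Atp6v1a (-0.33, adjusted p = 0.201), Gaa (-0.19), Npc1 (-0.12), Lamp2 (-0.12), Scarb2 (-0.08) and Npc2 (-0.01). In the fit of every probe set, 3 second probe sets were called higher in C57BL/6 at 3 weeks and 1 lower. Those higher were of Fuca1 (0.76, adjusted p = 0.0106), Tpp1 (0.64, adjusted p = 0.0157) and Npc2 (0.43, adjusted p = 0.0181). The lower one, of Atp6v1e1 with a median signal of 80.6, fell by 1.14 (SE 0.34, adjusted p = 0.0432), the opposite direction to the one used. The second Man2b1 probe set was at -0.60 (SE 0.44). Lamp1 (0.18) and Ppt1 (0.09) completed the set.

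**Figure D2:**
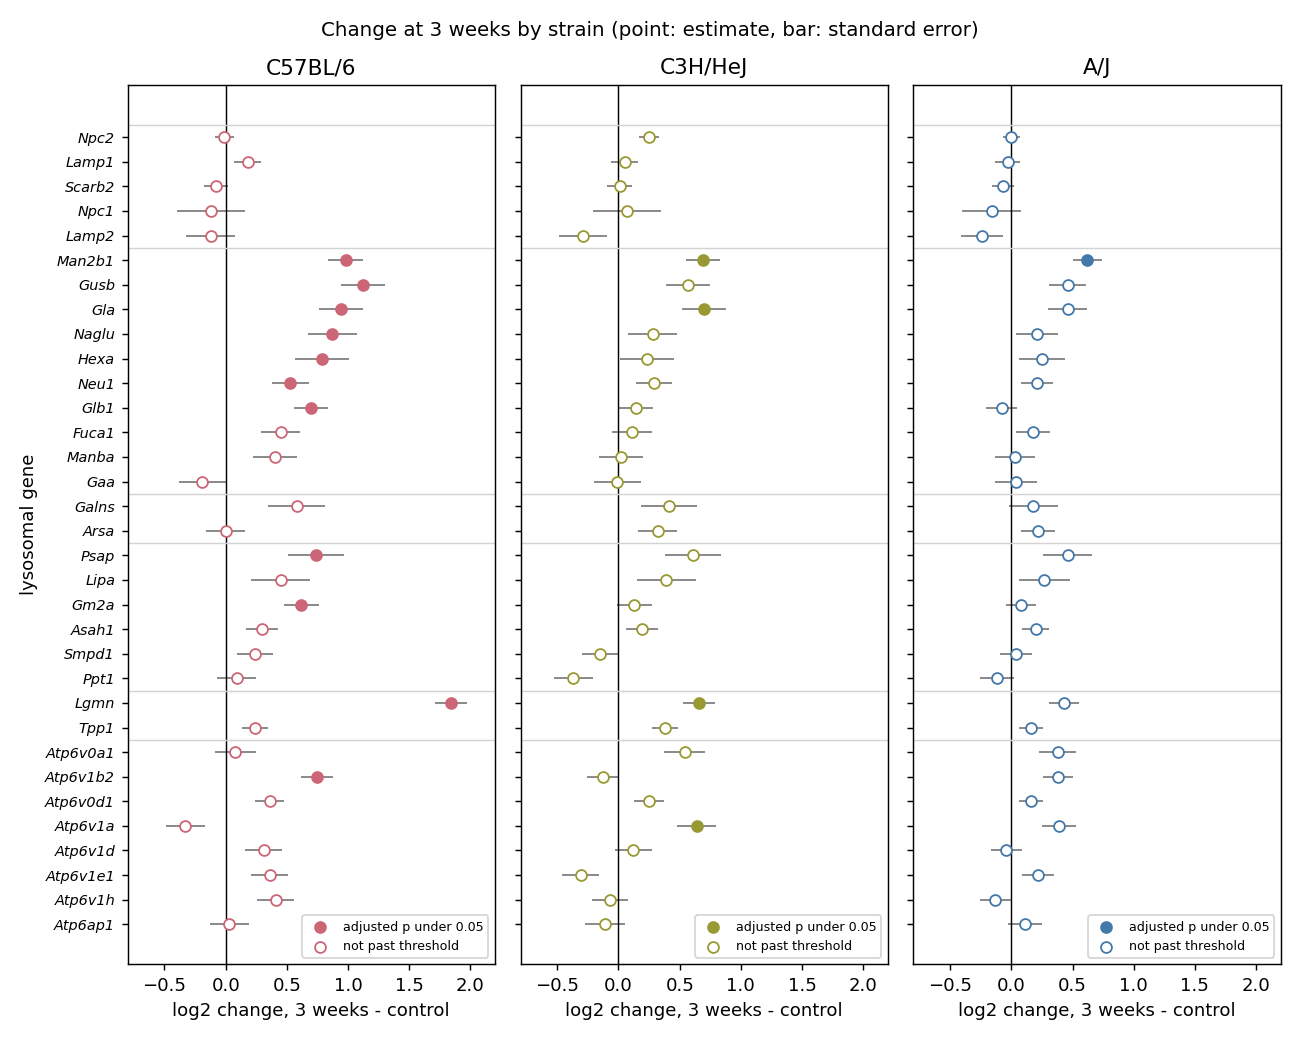
Log2 change from control at 3 weeks (x axis) of the 33 lysosomal genes (y axis, by role) in C57BL/6, C3H/HeJ and A/J, each point with its standard error; filled points had an adjusted p under 0.05. C57BL/6 has 11 filled points, C3H/HeJ 4 and A/J 1, and Lgmn in C57BL/6 lies far right of the rest at 1.84.

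A/J lungs at 3 weeks gave 1 call. Man2b1 rose by 0.62 (SE 0.12, adjusted p = 0.0141) and no member was lower, against 0.793% higher and 0.242% lower of all genes. The median change was 0.18, and on 12 of the 33 genes the 4 treated arrays lay above both controls, against 10.5% of all genes. Lgmn (0.43, adjusted p = 0.0987) and Atp6v1b2 (0.38, adjusted p = 0.175) followed by p without passing. Gla and Gusb were both at 0.46, and Psap was at 0.46, adjusted p = 0.412. Glb1 at -0.08 was below 0. The Man2b1 call was lost without either A/J control array (0.59 and 0.65), with the deposited scaling (0.22), with all arrays at 1 median (0.54) and with the mean of its probe sets (0.50).

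C3H/HeJ lungs at 3 weeks gave 4 calls, all higher, against 1.74% higher and 1.09% lower of all genes. Man2b1 rose by 0.69 (SE 0.14, adjusted p = 0.00996), Lgmn by 0.66 (SE 0.13, adjusted p = 0.0117), Atp6v1a by 0.64 (SE 0.16, adjusted p = 0.0379) and Gla by 0.70 (SE 0.18, adjusted p = 0.0463). The median of the 33 was 0.19 (-0.03 for all genes), and on 16 genes both treated arrays lay above both controls, against 21.1% of all genes. Atp6v1a, the pump's catalytic subunit, had 581 and 869.7 at 3 weeks, against 459.8 and 443 in C3H/HeJ controls. The female pool was the brightest of the 21 arrays for this gene, and the groups did not overlap. A second Atp6v1a probe set, with a median signal of 464.2, was at 0.30 (SE 0.26) in C3H/HeJ and was not called. Npc2 (0.25, adjusted p = 0.0994), Tpp1 (0.38, adjusted p = 0.0828) and Gusb (0.57, adjusted p = 0.106) came next, and Ppt1 (-0.37), Atp6v1e1 (-0.31) and Lamp2 (-0.29) had the lowest changes. The count rests on few arrays: without either C3H/HeJ control it was 0, without the male 3 week array it was 1 (Atp6v1a, 0.94), without the female 3 week array 1 (Man2b1, 0.89, with Atp6v1a at 0.33), and with the deposited scaling 0. Gla, with its adjusted p close to the threshold, lost the call under 23 of 32 other settings, and Atp6v1a under 13 of 33.

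Across strains 17 of the 33 changes at 3 weeks were above 0 in each of the 3 strains, against 20.8% of all genes, and 24 were largest in C57BL/6, against 42.0% of all genes. The series is titled for the strain dependence of the response, and the difference between strains was tested directly. Between C57BL/6 and A/J 2 members passed, against 1.56% of all genes: Lgmn, whose change was 1.84 in C57BL/6 and 0.43 in A/J, a difference of 1.40 (SE 0.18, adjusted p = 0.00102), and Glb1, at 0.70 and -0.08, a difference of 0.78 (SE 0.19, adjusted p = 0.0499). Between C57BL/6 and C3H/HeJ 1 member passed, against 0.297% of all genes: Lgmn, at 1.84 and 0.66, a difference of 1.18 (SE 0.19, adjusted p = 0.0101). The pump subunits Atp6v1b2 and Atp6v1a differed in opposite directions without passing. Atp6v1b2 was at 0.75 in C57BL/6 and -0.13 in C3H/HeJ (difference 0.88, adjusted p = 0.0623), and Atp6v1a at -0.33 and 0.64 (difference -0.97, adjusted p = 0.0698). A second Atp6v1a probe set was at -0.01 (SE 0.26) in C57BL/6 and 0.30 (SE 0.26) in C3H/HeJ. A second Atp6v1b2 probe set was at 0.53 (SE 0.22) and 0.10 (SE 0.22). Control levels of the 2 strains differed for both genes. On the log2 scale Atp6v1b2 averaged 9.64 in C57BL/6 and 9.62 in C3H/HeJ at 3 weeks, against 8.90 and 9.75 in controls. Atp6v1a averaged 9.07 and 9.51 at 3 weeks, against 9.39 and 8.87 in controls. Glb1 had an adjusted p close to the threshold and lost the call under 22 of 33 other settings, over which its difference ran from 0.61 to 0.92. The Lgmn difference from A/J kept its call under each of 33 settings, at 1.20 to 1.70. The Lgmn difference from C3H/HeJ lost its call with the deposited scaling (1.50), without the C57BL/6 male 3 week array (0.97) and without either C3H/HeJ control (1.19 and 1.17).

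**Figure D3:**
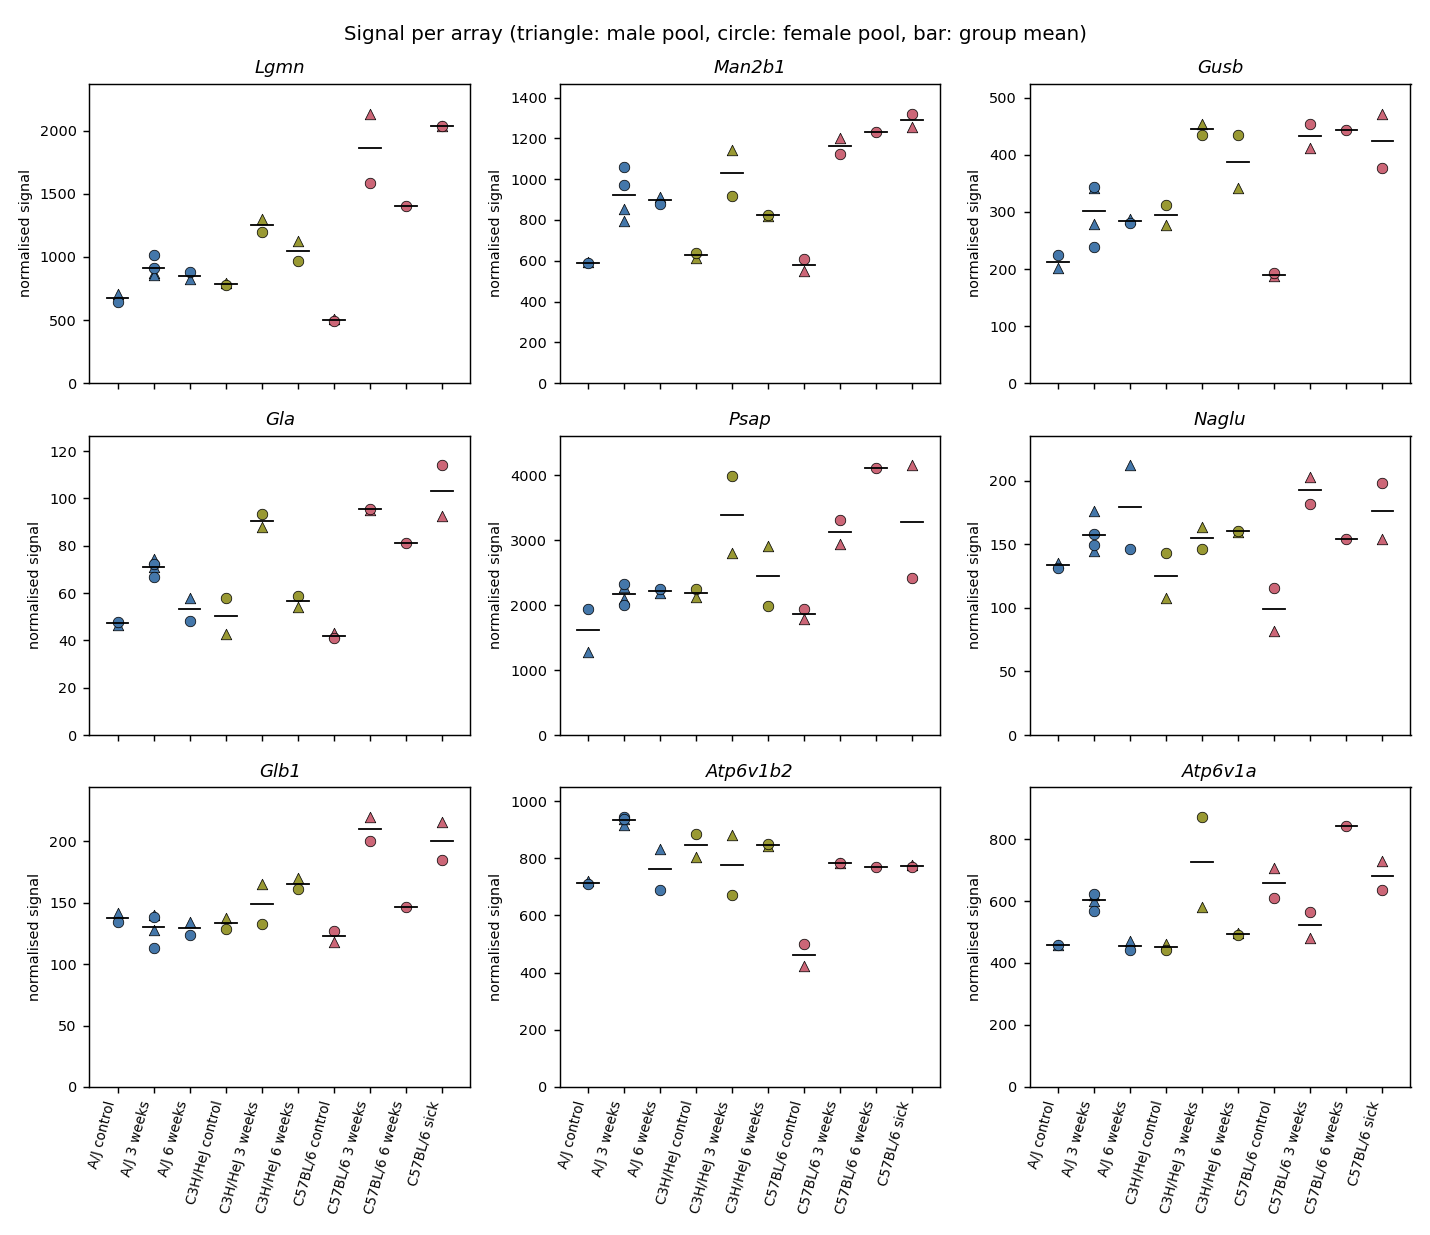
Normalised signal (y axis, linear from 0) on each of the 21 arrays for 9 lysosomal genes, by strain and stage in the order control, 3 weeks, 6 weeks and sick; triangles are male pools, circles female pools and bars group means. Lgmn in treated C57BL/6 arrays sits between 1403 and 2136, above all other arrays, while Atp6v1b2 is lowest in C57BL/6 controls, at 425 and 499.

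Control lungs of the strains differed in a few members. Atp6v1b2 had 425 and 499 in C57BL/6, against 719.9 and 709.8 in A/J and 806 and 885 in C3H/HeJ. The C57BL/6 controls were lower than every other array for this gene. The difference was -0.62 (SE 0.13, adjusted p = 0.0177) from A/J and -0.85 (SE 0.13, adjusted p = 0.00149) from C3H/HeJ. Asah1 had 1484 and 1242 in C57BL/6 controls, against 972 and 839 in A/J controls, a difference of 0.58 (SE 0.13, adjusted p = 0.0176). Ppt1 had 266 and 248 in C57BL/6 controls, against 482 and 513 in C3H/HeJ controls, a difference of -0.91 (SE 0.16, adjusted p = 0.00339). Lgmn was lower in C57BL/6 than in C3H/HeJ controls by a difference of -0.63 (SE 0.13, adjusted p = 0.0189). In each of these pairs the groups did not overlap. Over all genes both C57BL/6 controls were higher for 19.3% and lower for 34.6% against A/J, and for 21.2% and 31.4% against C3H/HeJ. In all 1 member was higher and 1 lower in C57BL/6 than in A/J controls (2.8% of all genes were called), 0 and 3 against C3H/HeJ (2.53%), and 0 between A/J and C3H/HeJ (0.958%), where 3 members and 645 genes had an unadjusted p under 0.05. The smallest p in that last pair were those of Gusb (-0.44), Asah1 (-0.30) and Ppt1 (-0.36). With the deposited scaling 0 members were called between C57BL/6 and either strain. Most of these calls rested on single arrays. The Asah1 difference from A/J was lost without any 1 of its 4 control arrays (0.48 to 0.68), and that of Lgmn from C3H/HeJ without any 1 of its 4 (-0.64 to -0.62). The Atp6v1b2 difference from A/J was lost without the C57BL/6 male control (-0.48) or either A/J control (-0.62 and -0.61), and with the mean of probe sets (-0.41). Ppt1 was at -0.45 and not called with the mean of its probe sets, and lost the call without the female control of C57BL/6 (-0.88) or C3H/HeJ (-0.85). The Atp6v1b2 difference from C3H/HeJ lost its call with the deposited scaling (-0.72) and under none of the other 32 settings.

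Sick C57BL/6 mice had 9 members called in common with C57BL/6 mice at 3 weeks, and both are set against the same controls. In sick mice 10 of 33 were higher than in controls and 0 lower, against 6.94% higher and 8.3% lower of all genes, with a median of 0.28 (0.00 for all genes). Lgmn had 2036 and 2039 in sick mice, against 511 and 496 in controls, a change of 1.98 (SE 0.13, adjusted p = 7.1e-08) or 3.95-fold. Man2b1 had 1258 and 1322 in sick mice, against 551 and 609 in controls, a change of 1.13 (SE 0.14, adjusted p = 3.07e-05). Gusb had 472 and 377 in sick mice, against 187 and 194 in controls, a change of 1.09 (SE 0.18, adjusted p = 0.000487). Both sick pools were above both controls for these 3 genes, as they were for 21 of the 33, against 27.3% of all genes. Gla had 92.5 and 114 in sick mice, against 43.2 and 40.8 in controls, a change of 1.03 (SE 0.18, adjusted p = 0.000812). Atp6v1b2 had 775 and 768, against 425 and 499, a change of 0.73 (SE 0.13, adjusted p = 0.00136). Glb1 had 216 and 185, against 118 and 127, a change of 0.64 (SE 0.14, adjusted p = 0.00627). The sick pools again stood clear of controls. Neu1 (0.61), Naglu (0.75), Galns (0.76) and Psap (0.77) rose as well, Psap with 4151 in the male and 2424 in the female pool. Without the male sick pool Psap was at 0.33 and did not pass. With the mean of its probe sets Man2b1 was at 0.17. Galns was called here and not at 3 weeks (0.58), while Hexa (0.28, adjusted p = 0.451) and Gm2a (0.39, adjusted p = 0.067) were called at 3 weeks and not here. Without the male control array the count in sick mice was 6, and with the deposited scaling it was 1, Lgmn (1.70). In the fit of every probe set, 3 second probe sets were called higher in sick mice and 0 lower. They were of Gusb (1.12, adjusted p = 0.0223) and Fuca1 (0.67, adjusted p = 0.02, and 0.78, adjusted p = 0.0435). The Fuca1 probe set used for the gene was at 0.37 and was not called.

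Set directly against each other, sick mice and mice at 3 weeks differed in 0 members by the limma test, as in 0.0% of all genes. At an unadjusted p under 0.05 there were 4 members and 886 genes. The smallest p were those of Atp6v1h, Lamp1 and Atp6v1a. Atp6v1h had 242 and 255 in sick mice, against 358 and 334 at 3 weeks (-0.45, adjusted p = 0.369). Lamp1 had 2954 and 2356, against 3227 and 3250.2 (-0.29, adjusted p = 0.417). Atp6v1a had 728 and 635, against 481 and 563 (0.38, adjusted p = 0.456). The 2 pools of each group did not overlap for these genes, yet no adjusted p was under 0.05. Both sick pools were higher for 4 of the 33 genes and lower for 10, against 17.4% and 20.6% of all genes. Hexa was split within the sick group, at 1270.3 and 786.

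At 6 weeks no member was called in A/J or C3H/HeJ. Against controls 0.11% of all genes were called in A/J and 0.11% in C3H/HeJ, and the members' medians were 0.07 and 0.11. At an unadjusted p under 0.05 there were 3 members and 477 genes in A/J, and 3 and 418 in C3H/HeJ. Man2b1 had the smallest p in A/J, with 915 and 879.8 at 6 weeks, against 594 and 587 in controls (0.59, adjusted p = 0.221). Lgmn had 823 and 877, against 707 and 640.4 (0.33), and Gusb 288 and 280, against 201 and 225 (0.39). These arrays lay above the A/J controls without passing the test. On 13 of the 33 genes both 6 week arrays lay above both A/J controls, against 19.3% of all genes. In C3H/HeJ Lgmn had 1127 and 969 at 6 weeks, against 797 and 774 in controls (0.40, adjusted p = 0.717). Man2b1 had 819 and 826, against 614 and 640.2 (0.38), and Gm2a 836 and 1105, against 694 and 813 (0.35). Here too the 6 week arrays were the higher ones, as on 16 of the 33 genes in C3H/HeJ, against 21.4% of all genes. The 6 week array of female C3H/HeJ mice, with the Gapdh ratio of 2.08, had Gm2a at 1105, the highest of the 21 arrays, and whether RNA quality had a part in that was not tested.

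Between 6 and 3 weeks the members' median difference was -0.02 in A/J and -0.08 in C3H/HeJ (0.01 and 0.05 for all genes), with 0 members called, against 0.022% and 0.187% of all genes. There were 3 members and 431 genes with an unadjusted p under 0.05 in A/J, and 6 and 1244 in C3H/HeJ. Atp6v1a had 470 and 443 at 6 weeks, against 599, 620.3, 624 and 567 at 3 weeks, in A/J (-0.39). In C3H/HeJ it had 495 and 491, against 581 and 869.7 (-0.51). Its 6 week arrays were below its 3 week arrays in both strains. That order held for 3 of the 33 genes in A/J and 13 in C3H/HeJ, against 6.71% and 15.5% of all genes. Gla had 58.0 and 48.2 at 6 weeks, against 74.5, 70.9, 72.2 and 66.6 at 3 weeks, in A/J (-0.34) and 54.3 and 58.7, against 87.8 and 93.3, in C3H/HeJ (-0.56). Atp6v1b2 had 832 and 691, against 917, 938, 943 and 939, in A/J (-0.30), and Atp6v0a1 had 494 and 394, against 634 and 675, in C3H/HeJ (-0.55). None of these differences passed after adjustment.

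The single C57BL/6 array at 6 weeks, from females, had no replicate. The members' median difference from the control mean was 0.31 there, against -0.04 for all genes. It lay above both controls for 26 of the 33 genes (78.8%, against 32.9% of all genes) and below both for 2. Lgmn had 1403, against 511 and 496 in controls, Man2b1 1233, against 551 and 609, and Gusb 444, against 187 and 194. These were close to the C57BL/6 arrays at 3 weeks for Man2b1 and Gusb and lower for Lgmn. Among members higher than the C57BL/6 mean at 3 weeks were Lipa (1178, against 715), Psap (4118, against 3122) and Atp6v1a (841, against 522). By array, the members' median difference from the own strain's control mean was 0.33 to 0.41 at 3 weeks and 0.25 to 0.32 in sick mice in C57BL/6. It was 0.21 to 0.28 at 3 weeks and 0.10 to 0.17 at 6 weeks in C3H/HeJ, and 0.13 to 0.28 and 0.07 to 0.19 in A/J. The A/J array with the highest value, 0.28, was the male pool at the lowest dose, 80.

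Other genes of the lysosomal pathway were counted in the mean of the strains, where 7.93% of all genes were higher and 9.0% lower. Of 22 other lysosomal hydrolases, 2 were higher (9.09%) and 1 lower (4.55%), near the shares of all genes (median 0.14). Ifi30, a thiol reductase that helps unfold antigens, rose by 0.78 (SE 0.09, adjusted p = 1.63e-05) and by 1.29 in C57BL/6. Cpq, a carboxypeptidase, fell by 0.50 (SE 0.13). Of 23 other lysosomal membrane proteins 7 rose (30.4%) and 2 fell (8.7%; median 0.11). Cd68, a glycoprotein of macrophage lysosomes, rose by 0.97 (SE 0.09) and Litaf, a protein of late endosomes, by 0.81 (SE 0.08). Slc11a1, the metal transporter of phagosomes, rose by 0.63 (SE 0.08), while the transporter gene Abca2 was at -0.72 in the mean and -1.86 in C3H/HeJ. Of 11 other pump subunits 2 rose (18.2%) and 1 fell (9.09%; median 0.08). Tcirg1, which encodes the a3 subunit found in osteoclasts and macrophages, rose by 0.54 (SE 0.10) in the mean and by 0.81 (SE 0.17) in sick mice. Atp6v1c1 rose by 0.35 (SE 0.07), and Atp6v1c2, an isoform of the same subunit, fell by 0.77 (SE 0.20).

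Of 21 genes of lysosome regulation and enzyme sorting 3 rose (14.3%, against 7.93% of all genes) and 0 fell (median 0.02) in the mean. Igf2r, the large receptor that sorts hydrolases tagged with mannose 6-phosphate, rose by 0.33 (SE 0.07) in the mean and 0.59 (SE 0.13) in C57BL/6. Gnptab, the transferase that makes that tag, rose by 0.35 (SE 0.09) and 0.54 (SE 0.15). Mitf and Tfec, relatives of TFEB, rose in C57BL/6 at 3 weeks, by 0.85 (SE 0.22) and 1.34 (SE 0.40). Of 16 autophagy genes 0 rose and 1 fell (6.25%, against 9.0% of all genes) in the mean (median -0.06). The 1 that fell was Gabarapl1, a protein of autophagosome membranes, by 0.24 (SE 0.06). In C57BL/6 2 fell (12.5%, against 5.97% of all genes), among them Map1lc3a, of the LC3 family, by 0.38 (SE 0.12, adjusted p = 0.0489).

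Markers of other cells moved alongside. In the mean of the strains 14 of 21 macrophage markers were higher and 1 lower (median 0.76), against 7.93% and 9.0% of all genes. In C57BL/6 13 rose (median 1.12), in C3H/HeJ 9 rose and 1 fell (0.49), in A/J 4 rose (0.32), and in sick mice 14 rose (1.10). Of all genes 7.08%, 1.74%, 0.793% and 6.94% were higher in these comparisons, and 1.09% lower in C3H/HeJ. Their summed signal was 18859 to 20239 in C57BL/6 at 3 weeks and 19114 to 20786 in sick mice, against 12946 to 13320 in C57BL/6 controls. It was 15034 to 16837 at 3 weeks, against 13997 to 14877 in controls, in C3H/HeJ, and 13890 to 15271 at 3 weeks, against 11957 to 12820 in controls, in A/J. The members' medians at 3 weeks were 0.36 in C57BL/6, 0.19 in C3H/HeJ and 0.18 in A/J, the last 2 nearly equal. None of the 21 markers, all past the filter on dim probe sets, was at 0 on every array of a group. Gpnmb, a glycoprotein of lysosome-rich macrophages, changed by 3.58 in C57BL/6, 1.90 in A/J and 1.64 in C3H/HeJ, whereas Csf1r, the growth factor receptor of macrophages, was at 0.38, 0.17 and 0.02. Lyz2 was at 0.03 in C57BL/6. Of 9 neutrophil markers 8 rose in the mean (median 0.92), and A/J had the highest median of the strains (1.86).

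Type 2 alveolar markers, whose cells hold lamellar bodies, fell in 6 of 10 in C57BL/6 at 3 weeks and 6 of 10 in sick mice, and 0 of 10 in A/J or C3H/HeJ. Of all genes 5.97% were lower in C57BL/6 at 3 weeks and 8.3% in sick mice. Endothelial markers fell in 9 of 11 in C57BL/6 at 3 weeks, where 1 rose. Heart muscle markers fell in 10 of 10 in the mean (median -1.02), with summed signals of 1942 to 2539 at 3 weeks, against 5618 to 5785 in controls, in C57BL/6. B cell markers fell in 6 of 6 in the mean (median -0.98), T cell markers in 1 of 6 (-0.35) and adipocyte markers in 3 of 4 (-0.90). In the mean 9.0% of all genes were lower, and the T cell count was only 1 gene. The genes of these lists had all passed the filter on dim probe sets. That none was at 0 on every array of a group therefore does not show which cells were present. The part of any of these shifts in the changes of the lysosomal genes was not tested.

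**Figure D4:**
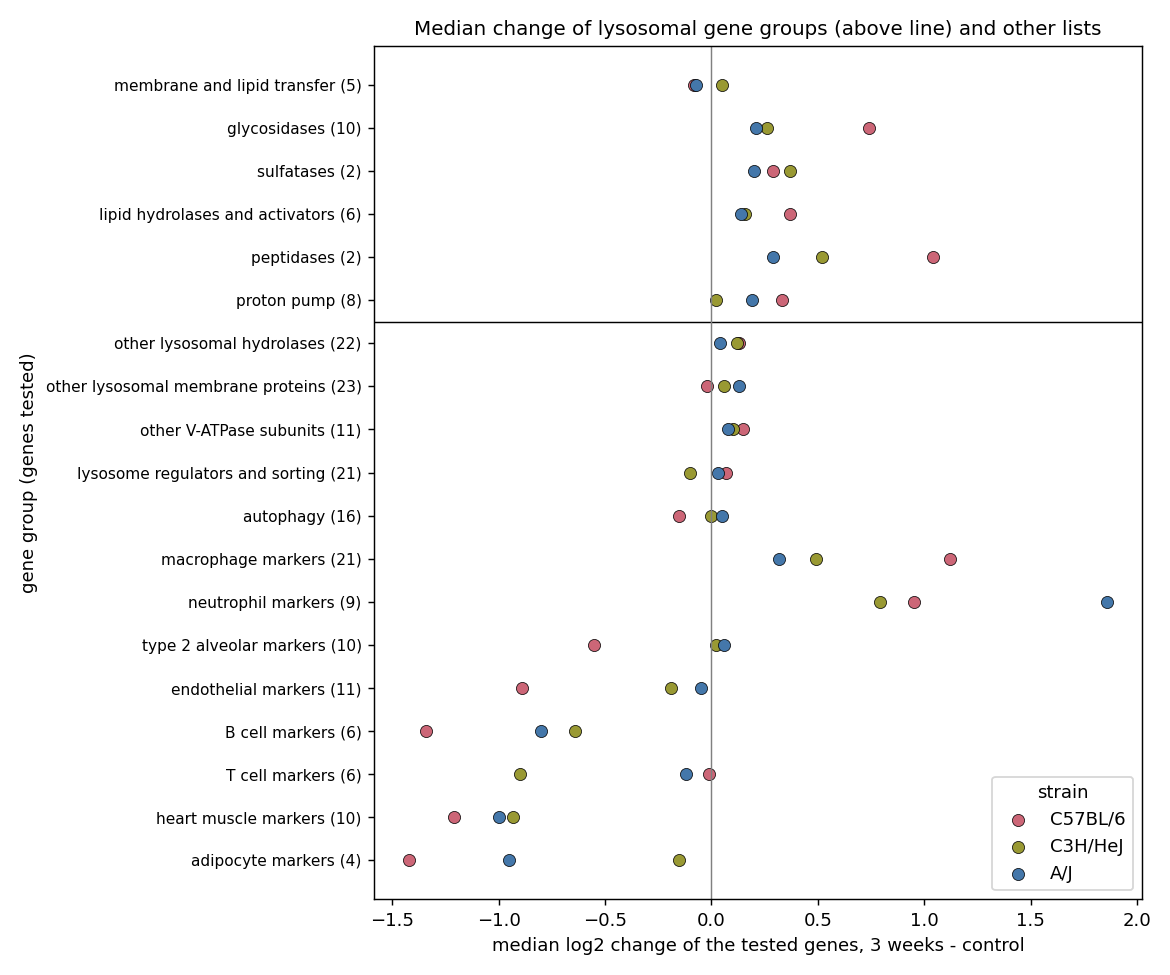
Median log2 change at 3 weeks (x axis) of the 6 groups of lysosomal genes (above the line) and of other gene lists (y axis, genes tested in brackets), 1 point per strain. Glycosidases reach 0.74 in C57BL/6, against 0.26 in C3H/HeJ and 0.21 in A/J, macrophage markers are at 1.12, 0.49 and 0.32, and the membrane group stays near 0.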

How the data were processed

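Total RNA of the whole right lung was measured on 21 arrays, each a pool of several mice, per the labels. The deposited table held linear intensity. How the authors summarised, background-corrected and scaled it is not stated in the sources used here. Deposited array medians spanned a ratio of 1.9, and intensity was therefore quantile normalized between arrays, an offset of 16 was added and log2 values were taken. After 64 control probe sets were left out, symbols came from the array annotation (20380 probe sets with 1 symbol, 691 with several, 1555 with none). The dimmest 33.3% of probe sets were left out, and the probe set with the highest mean stood for its gene (9079 genes).

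One limma 3.58.1 model (R 4.3.3; lmFit, contrasts.fit, eBayes with trend) with a term for each of 10 groups and a sex term was fitted to the 21 arrays, leaving 10 residual degrees of freedom (16.9 once shrunken). Two-sided tests were used, with Benjamini-Hochberg adjustment over all genes of a comparison. The number of arrays limits the precision: the median SE was 0.198 for 2 arrays against 2. The procedure was tested on simulated data with independent noise and no sex, strain or scaling effect. That test cannot speak to how the counts depend on scaling. The lysosomal genes and the other lists were chosen with earlier results of these data known, so their counts are descriptions. Values of every array are given for members called, up to 10 by smallest p in the mean of the strains and 6 elsewhere, or the 3 smallest p where none was called. Alternatives were the deposited scaling, scaling to 1 median, offsets of 1 and 64, no filter on dim probe sets or the dimmest 50% left out, no sex term, the Gapdh ratio as a covariate, array weights, the mean of a gene's probe sets, every probe set, A/J doses as in the other strains, and each array left out in turn. Promoter sequences came from RefSeq (GRCm38.p6). The dose unit and the route are not in the labels.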

Additional observations from a re-analysis of the deposited data

Results flagged for a closer look

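Values of 2 kinds stood out. Among the 4 A/J arrays at 3 weeks, Gaa had its highest signal, 508.1, on the male array at 80, far above the other 3, and Fuca1 had its lowest, 686.2, on the female array at 100. Each array's gap to its nearest neighbour was large for the range of the 4. With 33 members looked at in this group, chance alone marks about 1 gene in 20. The response at 3 weeks differed between strains by a direct test for 2 genes: Lgmn changed more in C57BL/6 than in A/J by 1.40 and than in C3H/HeJ by 1.18, and Glb1 changed more in C57BL/6 than in A/J by 0.78.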

How the results depend on the processing

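Of 1646 recomputed values of the 50 called member changes, 1400 kept direction and call, 242 kept the direction and lost the call, and 4 turned. The 4 came with the deposited scaling in the mean of the strains: Asah1 (-0.07), Atp6v0d1 (-0.05), Gm2a (-0.03) and Tpp1 (-0.04). With that scaling the median of all genes was -0.27 in that comparison, and members called numbered 4 in the mean, 1 in C57BL/6 at 3 weeks, 1 in sick mice, 0 in A/J, 0 in C3H/HeJ, 1 for the response of C57BL/6 minus A/J, 0 for C57BL/6 minus C3H/HeJ, and 0 for each control comparison with C57BL/6. With all arrays at 1 median they numbered 8 in the mean, 0 in A/J, 1 in C3H/HeJ and 2 for the response of C57BL/6 minus C3H/HeJ. The mean of a gene's probe sets gave 0 in A/J, 2 in C3H/HeJ and 1 for C57BL/6 minus A/J controls. In C3H/HeJ every probe set, the Gapdh covariate and matched A/J doses gave 2 each. For the response of C57BL/6 minus A/J, 1 was called with an offset of 1, no filter on dim probe sets, no sex term, every probe set, the Gapdh covariate and matched A/J doses. For C57BL/6 minus C3H/HeJ, 2 were called without the sex term and 3 with array weights. Array weights also gave 2 in A/J, 5 for C57BL/6 minus A/J controls and 6 for C57BL/6 minus C3H/HeJ controls, and the Gapdh covariate gave 0 for C57BL/6 minus A/J controls.

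Leaving out each array in turn gave 10 to 17 members called in the mean, 6 to 12 in C57BL/6, 0 to 1 in A/J, 0 to 4 in C3H/HeJ and 6 to 11 in sick mice. It gave 0 to 1 for C3H/HeJ at 6 against 3 weeks, 1 to 3 and 0 to 4 for the responses of C57BL/6 minus A/J and minus C3H/HeJ, and 0 to 3 and 1 to 5 for the control comparisons of C57BL/6 with A/J and C3H/HeJ. Other counts stayed within 1.5 times. The cause of these shifts was not tested. No paired analysis was possible because the labels give no replicate numbers and tie no pool to a pool of another group except by sex. Sex was a term of the model, which matches male with male and female with female pools, and without it 16 members were called in the mean, 12 in C57BL/6 and 10 in sick mice. The fit without arrays that go against their sex label was not run, since 0 arrays did. Most groups had 2 arrays, and the median SE of 0.198 for 2 arrays against 2 is not the smallest change that could be called. A change had to be well above its SE. In C57BL/6 at 3 weeks Neu1 at 0.53 (SE 0.16) was called. Galns at 0.58 (SE 0.23) and Atp6v1h at 0.41 (SE 0.15) were not.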
